A study of Mus musculus with 17 samples.

Results

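The 10 genes Col1a1, Col1a2, Col3a1, Dcn, Lum, Igf2, Slc6a13, Slc22a6, Ptgds and Aldh1a2, which mark the fibroblasts of the meninges and of the space around blood vessels, were followed in mouse brain RNA. They were chosen by name as known markers, and all 10 were found among the 45147 features of the count tables. The study sequenced brain RNA from mice that carry and overexpress a HAR1A transgene, a human noncoding RNA gene (6 libraries, called transgene 1 to 6), and from normal mice (11 libraries, called control 1 to 11), all on the C57BL/6 strain background. The labels give no age, sex, brain region, transgene promoter or founder line, and do not say whether each library came from its own animal. The p-values thus describe the variation among these 17 libraries, which may be technical. Apart from the sequencing lane, the labels state no other difference between the groups. All 6 transgene libraries and 3 controls (7, 8 and 11) were run on lane 4 of a flow cell, 6 controls (1, 2, 3, 5, 9 and 10) on lane 8, control 4 on lane 2, and control 6 on lane 6 of another flow cell. In bulk tissue, fewer cells of a type and less RNA per cell cannot be told apart.

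The meninges are the membranes that wrap the brain. Their fibroblasts lay down fibrillar collagens and small leucine-rich proteoglycans, and they carry organic anion and amino acid transporters that move molecules between blood, cerebrospinal fluid and tissue. They also make retinoic acid through Aldh1a2, prostaglandin D2 through Ptgds, and the growth factor Igf2. Few of these genes are exclusive to the meninges: Igf2 is also known from the choroid plexus, Ptgds from oligodendrocytes and choroid plexus, and the collagens from bone and other connective tissue.

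The promoters of the transporter and enzyme genes are shown first, because these genes varied together from library to library, as described below. The windows run from 250 bases before to 50 bases after a transcript start in the RefSeq annotation of GRCm38.p6, 5′ to 3′ on the gene's own strand. Windows were found for 7 of the 10 genes, and those of Slc6a13 (the first of its 3 windows, chr6:121300038-121300337, plus strand), Slc22a6 (chr19:8617746-8618045, plus strand), Ptgds (chr2:25469700-25469999, minus strand) and Aldh1a2 (chr9:71215539-71215838, plus strand) are printed. Capitals mark matches, on either strand, to the TATA box (TATAAA), the CCAAT box, the GC box (GGGCGG), a forkhead core (TAAACA) or the AP-1 site (TGANTCA).
Slc6a13: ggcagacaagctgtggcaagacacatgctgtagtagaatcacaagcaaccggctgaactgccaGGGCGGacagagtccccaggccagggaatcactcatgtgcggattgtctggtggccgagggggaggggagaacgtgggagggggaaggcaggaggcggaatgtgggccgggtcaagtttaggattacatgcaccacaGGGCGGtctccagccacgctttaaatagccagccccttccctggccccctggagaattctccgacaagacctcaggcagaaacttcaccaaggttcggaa
Slc22a6: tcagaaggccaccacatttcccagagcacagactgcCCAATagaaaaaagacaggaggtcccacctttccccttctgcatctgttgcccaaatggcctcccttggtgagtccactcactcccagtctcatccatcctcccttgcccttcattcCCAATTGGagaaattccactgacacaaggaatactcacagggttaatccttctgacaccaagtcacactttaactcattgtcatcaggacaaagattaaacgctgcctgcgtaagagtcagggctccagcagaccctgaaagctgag
Ptgds: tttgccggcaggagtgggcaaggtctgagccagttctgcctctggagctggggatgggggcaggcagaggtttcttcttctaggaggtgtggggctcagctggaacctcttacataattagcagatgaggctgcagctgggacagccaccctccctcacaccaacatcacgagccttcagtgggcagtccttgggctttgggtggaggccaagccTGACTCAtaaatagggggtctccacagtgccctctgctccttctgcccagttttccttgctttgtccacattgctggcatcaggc
Aldh1a2: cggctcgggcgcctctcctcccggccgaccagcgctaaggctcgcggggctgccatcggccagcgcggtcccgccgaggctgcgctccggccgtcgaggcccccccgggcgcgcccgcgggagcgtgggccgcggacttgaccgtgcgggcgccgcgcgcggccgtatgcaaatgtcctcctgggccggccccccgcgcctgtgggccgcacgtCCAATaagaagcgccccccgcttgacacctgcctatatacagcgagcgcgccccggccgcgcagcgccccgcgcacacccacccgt
The Slc6a13 window held a GC box at 2 places, and the Slc22a6 window a CCAAT box at 3, of which 2 overlap as the palindrome near the middle. The Ptgds window held an AP-1 site once and the Aldh1a2 window a CCAAT box once. No motif of the 5 was found in all 4 windows. Over 32851 mouse promoter windows of the same length, 35.7% held a GC box, 37.4% a CCAAT box, 7.81% an AP-1 site, 13.6% a TATA box and 13.4% a forkhead core.

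Libraries held 17067407 to 22642441 assigned counts, and every one of the 10 genes was detected in 17 of 17 libraries, with 33 counts (Col3a1 in transgene 3) as the smallest value. All values below are CPM, counts scaled to the size of each library with edgeR's TMM factors, unless stated otherwise. The tissue label was checked on 6 neuron markers, whose summed level was 4168 to 5603 CPM in the transgene group and 4237 to 6332 CPM in controls, with no marker at 0 throughout. Among other cell types, the 12 choroid plexus markers set some libraries apart: their sum was 26.3 CPM in transgene 2, 36.2 CPM in transgene 6 and 77.8 CPM in control 3, against 411 to 4130 CPM in the other 14 libraries. Ttr, the leading choroid plexus gene, ranged from 2.78 to 1714 CPM in the transgene group and from 45.6 to 3804 CPM in controls. Summed levels in transgene against control libraries were 11.4 to 52.6 against 16.2 to 57.4 CPM for 6 ependymal genes, 1271 to 2798 against 1504 to 6098 CPM for 9 oligodendrocyte genes, and 179 to 270.4 against 230.0 to 341 CPM for 8 endothelial genes. They were 226 to 335 against 290 to 395 CPM for 8 mural cell genes, 395 to 1137 against 472 to 5217 CPM for 5 red cell genes, 283 to 374 against 200.3 to 398 CPM for 7 microglial genes, and 4625 to 5626 against 3760 to 4922 CPM for 6 astrocyte genes. The astrocyte sum is carried by Slc1a2, which was the 1 gene of that list called higher, at 3514 ± 342 (n = 6) against 1814 ± 360.5 CPM (n = 11), while 4 of the 6 were called lower and the list's median log2 fold change was -0.49. Markers of tissue outside the brain were low: 5 bone genes summed to 19.96 to 42.4 against 17.6 to 33.3 CPM, and 5 skeletal muscle genes, 1 of them at 0 in every library, to 10.5 to 16.4 against 1.97 to 6.23 CPM. The muscle sums of the groups did not overlap, and the median bone sum was 32.5 CPM in transgene libraries against 22.0 CPM in controls. The bone factor gene Runx2 rose by 2.64 ± 0.33 on the log2 scale (edgeR adjusted p = 4.53e-06), from 1.00 ± 0.78 to 6.15 ± 1.33 CPM. Ibsp, untested over all libraries, was called higher within lane 4. Its level was low, at 0.85 ± 0.79 CPM (0 to 2.25) with the transgene and 0.17 ± 0.39 CPM (0 to 1.34) in controls. Sp7 was at 1.01 ± 0.41 (edgeR adjusted p = 0.0510), and Alpl, the bone gene with the highest level, at -0.05 (edgeR adjusted p = 0.762). Bglap was untested, at 0.35 ± 0.41 CPM with the transgene against 0.037 ± 0.055 CPM in controls. The muscle actin gene Acta1, nearly all of the muscle sum, rose by 1.92 ± 0.22 (edgeR adjusted p = 1.39e-06). These genes are named after their values were seen. Called higher and lower over all libraries were 0 and 1 of 10 tested choroid plexus genes, 0 and 1 of 5 ependymal, 1 and 6 of 9 oligodendrocyte, 0 and 3 of 6 endothelial and 0 and 2 of 6 mural genes. The counts were 0 and 3 of 5 for red cells, 3 and 0 of 4 for microglia and 2 and 1 of 6 for neurons. They were 1 and 0 of 3 for bone and 1 and 0 of 2 for skeletal muscle, where 47.4% of all tested features were called. The part of any of these cell types in the results below was not tested, except where values without the libraries low in choroid plexus markers are given.

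Compared per kilobase, which is possible for the 7 genes with a single deposited transcript, Slc6a13 stood highest in controls at 9.84 ± 3.36 CPM per kilobase (SD, n = 11), followed by Aldh1a2 at 8.67 ± 2.0 and Col1a2 at 8.38 ± 1.35. These neighbours differed by less than their spread. Col1a1 followed at 3.40 ± 0.66, Slc22a6 at 2.81 ± 0.99, Lum at 2.36 ± 0.75 and Col3a1 at 1.17 ± 0.22 CPM per kilobase. Col1a1 and Slc22a6, and Slc22a6 and Lum, also differed by less than their spread. In the transgene libraries (n = 6) Col1a1 stood at 5.01 ± 3.57 CPM per kilobase and Col3a1 at 0.81 ± 0.43, and Slc6a13 (9.75 ± 1.13), Aldh1a2 (8.10 ± 2.07) and Col1a2 (7.42 ± 2.85) were again the highest 3. Dcn, Igf2 and Ptgds have several deposited transcripts that share most of their bases, and reads on shared bases were not given to either, so their levels cannot be set beside the others. For Ptgds, 90.5% of the counts came from a transcript with 37 bases of its own out of 830, so the table holds little of this gene's RNA.

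The first comparison asked which of the 10 genes differ in brains that carry the transgene. Dcn and Lum, the proteoglycan genes, were lower in the transgene libraries, and the other 8 genes did not pass the test. That is 2 of 10 genes, both lower, at an edgeR adjusted p under 0.05, where 47.4% of all 19136 tested features were called (23.0% higher and 24.4% lower). The genes' share was thus below the background. Their median log2 fold change was -0.20 against -0.05 over all tested features, and the median size of the change was 0.40 against 0.35. Without the 3 libraries lowest in choroid plexus markers, 3 of the 10 genes were called, Col1a2, Col3a1 and Lum, all lower. There, 7407 of all 19723 tested features were called. For none of the 10 genes were the groups free of overlap, which 14.9% of all tested features were.

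**Figure D1:**
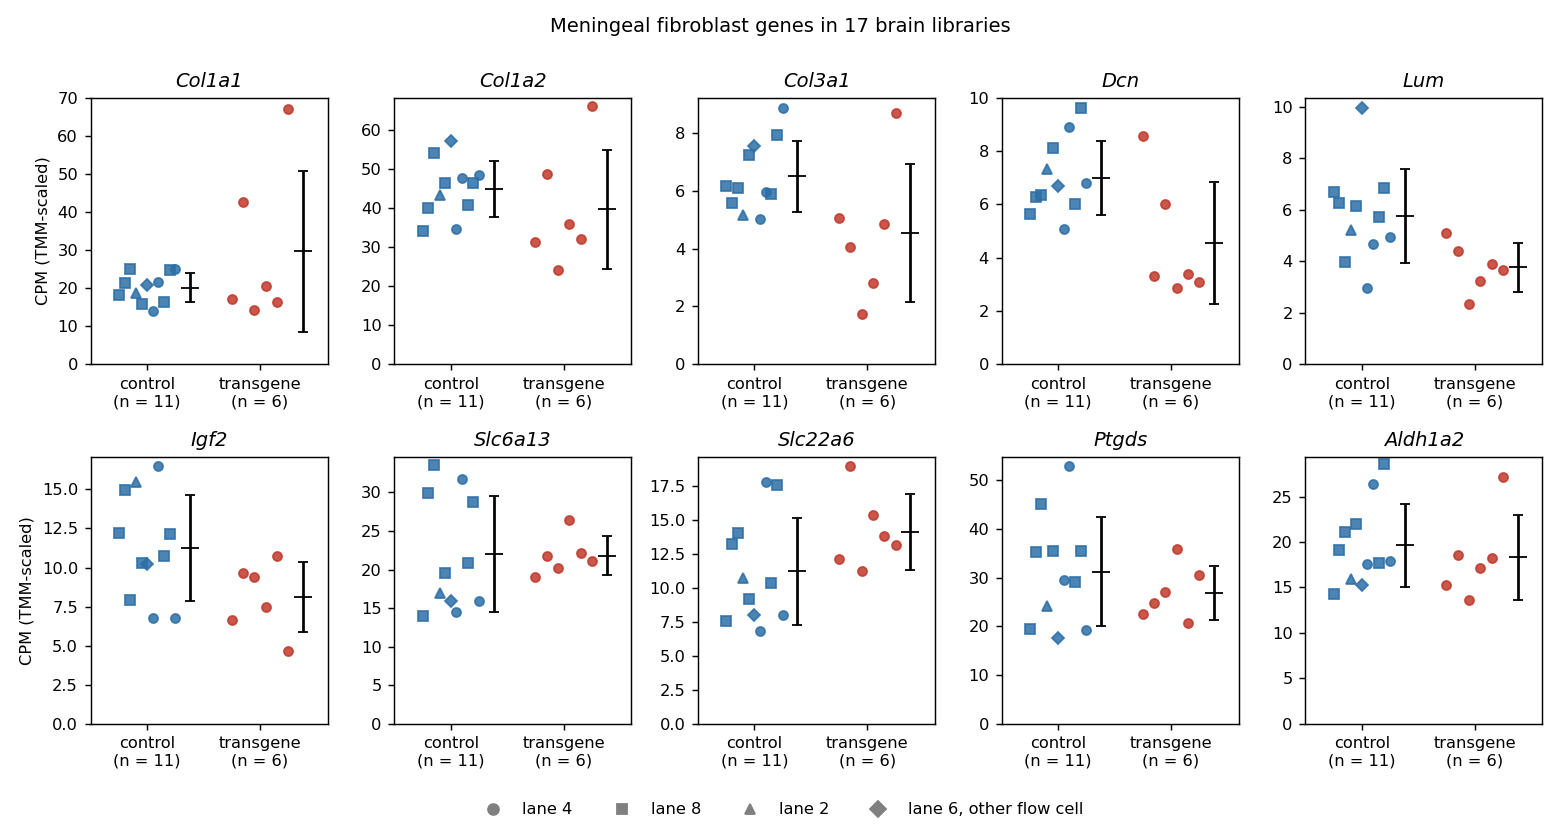
Level of each gene in every library (vertical axis, CPM after TMM scaling, starting at 0), with controls in blue (n = 11) and transgene libraries in red (n = 6); the marker shape gives the sequencing lane and the black bar the mean ± SD. The groups overlap in all 10 panels, and the 2 high Col1a1 points among the transgene libraries are transgene 6 (67.2 CPM) and transgene 2 (42.8 CPM).

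Col1a1 (mm10 chromosome 11, 94936224 to 94953042, plus strand) and Col1a2 (chromosome 6, 4504814 to 4541544, plus strand) encode the chains of type I collagen, the main fibrillar collagen of connective tissue. Col1a1 was at 17.1, 42.8, 14.2, 20.5, 16.4 and 67.2 CPM in transgene 1 to 6, and ranged in controls from 14.1 over a median of 20.9 to 25.1 CPM. Transgene 2 and 6 lay above every control, and the other 4 lay inside the control range. The means were 29.7 ± 21.2 CPM with the transgene (SD, n = 6) and 20.2 ± 3.9 CPM without it (n = 11). The log2 fold change, transgene minus control, was 0.56 ± 0.27 (SE), with an edgeR adjusted p of 0.0977. It was 0.16 without transgene 6 (edgeR adjusted p = 0.569), and it passed the test without transgene 1, 3 or 5, at 0.71, 0.73 and 0.72 (edgeR adjusted p = 0.0440, 0.0331 and 0.0410). Transgene 2 and 6 are also the transgene libraries lowest in choroid plexus markers. Without them and control 3, the log2 fold change of Col1a1 was -0.19 (edgeR adjusted p = 0.340), so its direction rests on these libraries.

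Col1a2 was at 31.3, 48.6, 24.1, 35.9, 32.2 and 66.1 CPM in transgene 1 to 6 and at 34.1, 46.3 and 57.1 CPM for the lowest, median and highest control. Transgene 6 lay above every control, and transgene 1, 3 and 5 below every one. The log2 fold change was -0.18 ± 0.17 (edgeR adjusted p = 0.416), with means of 39.7 ± 15.3 and 44.8 ± 7.2 CPM. Without transgene 2, transgene 6 and control 3 it was -0.49 (edgeR adjusted p = 0.00814), so the call depends on which libraries are kept.

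Col3a1 (chromosome 1, 45311538 to 45349706, plus strand) encodes type III collagen, which forms fibrils together with type I. It was at 5.05, 4.05, 1.74, 2.83, 4.84 and 8.69 CPM in transgene 1 to 6, with a lowest, median and highest control of 5.02, 6.11 and 8.88 CPM. Transgene 2 to 5 lay below every control, while transgene 6 was near the highest one. The log2 fold change was -0.53 ± 0.23 (edgeR adjusted p = 0.0734). It was -0.33 without transgene 3 and -0.39 without transgene 4 (edgeR adjusted p = 0.212 and 0.209), but -0.79 without transgene 6 (edgeR adjusted p = 0.00470) and -0.84 without the 3 libraries lowest in choroid plexus markers (edgeR adjusted p = 0.0112).

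Dcn (decorin; chromosome 10, 97479609 to 97518143, plus strand) binds collagen fibrils and limits their width. It was at 8.56, 3.32, 6.02, 2.87, 3.38 and 3.07 CPM in transgene 1 to 6, and at 5.07, 6.70 and 9.64 CPM for the lowest, median and highest control. Transgene 2, 4, 5 and 6 lay below every control, and transgene 1 and 3 inside the control range. Dcn fell by 0.62 ± 0.22 on the log2 scale (edgeR adjusted p = 0.0238), with means of 4.54 ± 2.29 CPM (n = 6) against 6.99 ± 1.39 CPM (n = 11). The call was lost when transgene 2, 4, 5 or 6 was left out, with log2 fold changes of -0.52, -0.49, -0.52 and -0.51 (edgeR adjusted p = 0.0794, 0.0814, 0.0772 and 0.0789). It was also lost without the 3 libraries lowest in choroid plexus markers, at -0.42 (edgeR adjusted p = 0.202).

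The counts of Dcn come from 2 deposited transcripts of 1758 bases, each with 181 bases of its own. Whether the transcripts differed in their change was not tested. With the transgene the first was at 3.89 ± 2.09 CPM (SD, n = 6) against 5.25 ± 1.11 CPM in controls (n = 11), and the second at 0.65 ± 0.28 against 1.74 ± 0.38 CPM. The second ranged from 0.41 to 1.17 CPM and, in controls, from 0.98 to 2.37 CPM. With the first transcript alone, the log2 fold change of Dcn was -0.41 (edgeR adjusted p = 0.161).

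Lum (lumican; chromosome 10, 97565128 to 97572703, plus strand) is a related proteoglycan gene that starts 46985 bases past the end of Dcn. It was at 5.11, 4.39, 2.32, 3.24, 3.90 and 3.67 CPM in transgene 1 to 6, and at 2.98, 5.71 and 9.98 CPM for the lowest, median and highest control. Only transgene 3 lay below every control, and control 7, the lowest, lay below 5 of the 6 transgene libraries. Lum fell by 0.61 ± 0.21 on the log2 scale (edgeR adjusted p = 0.0226). The means were 3.77 ± 0.96 CPM (n = 6) and 5.77 ± 1.83 CPM (n = 11). The call was lost without transgene 3, 4 or 6, with log2 fold changes of -0.49, -0.55 and -0.59 (edgeR adjusted p = 0.0809, 0.0659 and 0.0522).

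Igf2 (chromosome 7, 142650766 to 142666816, minus strand) encodes insulin-like growth factor 2, a growth factor secreted into the cerebrospinal fluid. It was at 6.65, 9.66, 9.40, 7.46, 10.7 and 4.67 CPM in transgene 1 to 6, with controls from 6.74 over a median of 10.7 to 16.5 CPM. Transgene 1 and 6 lay below every control. The log2 fold change was -0.47 ± 0.21 (edgeR adjusted p = 0.0701). It passed the test without control 3, 7 or 11, at -0.52, -0.51 and -0.53 (edgeR adjusted p = 0.0497, 0.0387 and 0.0370). One transcript gave 91.4% of its counts. The antisense gene Igf2os overlaps Igf2 and the strand setting of the counting is not stated, but Igf2os was low, at 0.72 ± 0.23 CPM (n = 6) against 0.86 ± 0.30 CPM (n = 11), with a log2 fold change of -0.25 (edgeR adjusted p = 0.436).

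Slc6a13 (chromosome 6, 121300227 to 121337733, plus strand) encodes GAT2, a transporter of GABA and taurine. It was at 19.04, 21.8, 20.2, 26.4, 22.1 and 21.2 CPM in transgene 1 to 6, all inside the control range of 14.0 to 33.6 CPM with a median of 19.5 CPM. The means were nearly the same, 21.8 ± 2.5 and 22.0 ± 7.5 CPM, with a log2 fold change of -0.01 ± 0.19 (edgeR adjusted p = 0.961). An approximate 95% interval of the log2 fold change, from its SE and a normal distribution, ran from -0.39 to 0.36.

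Slc22a6 (chromosome 19, 8618039 to 8628299, plus strand) encodes the organic anion transporter OAT1. It was at 12.1, 18.97, 11.2, 15.3, 13.8 and 13.1 CPM in transgene 1 to 6, against 6.79, 10.3 and 17.8 CPM for the lowest, median and highest control. Transgene 2 lay above every control, and the other 5 above the control median. The log2 fold change was 0.33 ± 0.20 (edgeR adjusted p = 0.184), with means of 14.1 ± 2.8 and 11.2 ± 3.9 CPM.

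Ptgds (chromosome 2, 25466709 to 25470046, minus strand) encodes the prostaglandin D2 synthase of the brain. It was at 22.5, 24.9, 27.0, 35.9, 20.6 and 30.5 CPM in transgene 1 to 6, inside the control range of 17.6 to 53.0 CPM (median 29.5 CPM), with a log2 fold change of -0.22 ± 0.21 (edgeR adjusted p = 0.425). Aldh1a2 (chromosome 9, 71215789 to 71296243, plus strand) encodes a retinaldehyde dehydrogenase that makes retinoic acid. It was at 15.3, 18.5, 13.7, 17.1, 18.2 and 27.1 CPM in transgene 1 to 6, against 14.3, 18.0 and 28.6 CPM for the lowest, median and highest control. Its log2 fold change was -0.10 ± 0.16 (edgeR adjusted p = 0.635).

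The second comparison held the lane constant, with the 6 transgene libraries against the 3 controls of lane 4. None of the 10 genes passed the test there, against 25.6% of 19261 tested features, and none had an unadjusted p under 0.05. DESeq2 and limma-voom called 0 of the 10 as well. Dcn had a log2 fold change of -0.63 ± 0.35 (edgeR adjusted p = 0.225), about as large as over all libraries. Lum was at -0.17 ± 0.25 (edgeR adjusted p = 0.673), a smaller change than over all libraries. Without control 7, the lowest control in Lum, its log2 fold change within lane 4 was -0.36 (edgeR adjusted p = 0.376). Col1a1 was at 0.54 ± 0.49, Col3a1 at -0.56 ± 0.40, Slc22a6 at 0.36 ± 0.29, Ptgds at -0.35 ± 0.27, Igf2 at -0.32 ± 0.32, Aldh1a2 at -0.19 ± 0.21, Col1a2 at -0.15 ± 0.27 and Slc6a13 at 0.06 ± 0.22 on the log2 scale. Here 25.4% of all tested features had groups that did not overlap, and none of the 10 genes did.

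The third comparison set the 6 controls of lane 8 against the 3 of lane 4, which share the genotype. No feature of 19384 was called by edgeR (0.0%), with 1543 at an unadjusted p under 0.05. DESeq2 called 1 feature and limma-voom 0. Without control 8, edgeR called 88 of 20204 features, with 4468 at an unadjusted p under 0.05. Lum was at 5.94 ± 1.05 CPM (SD, n = 6) on lane 8 and 4.20 ± 1.07 CPM (n = 3) on lane 4, and it was the only one of the 10 genes with an unadjusted p under 0.05 (log2 difference 0.51 ± 0.23, edgeR adjusted p = 0.581). The other 9 genes differed by -0.02 to 0.24 on the log2 scale. In a fit of all 17 libraries that also held the lane and flow cell, the log2 fold change of Lum was -0.15 (edgeR adjusted p = 0.666) and that of Dcn -0.61 (edgeR adjusted p = 0.159), and 0 of the 10 genes were called against 30.8% of all features. Every lane but lane 4 held controls only, so the fold changes of that fit also rest on lane 4 and are no separate check. Held to lane 4 in either way, the difference in Lum between transgene and control libraries did not pass the test.

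**Figure D2:**
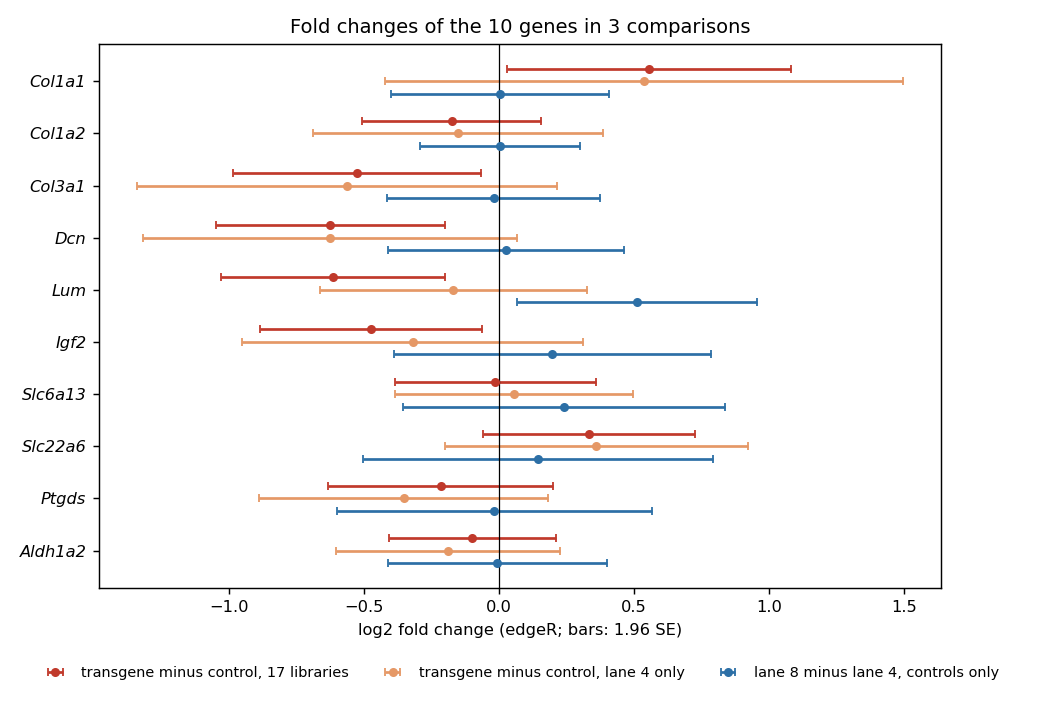
Log2 fold change of each gene (horizontal axis) in the 3 comparisons, with bars for an approximate 95% interval. The bars were drawn from the SE with a normal distribution, which makes them somewhat narrow for so few libraries. Dcn lies at the same value over all libraries (-0.62) and within lane 4 (-0.63) with a wider bar, whereas Lum moves from -0.61 to -0.17 and stands at 0.51 between the lanes of the controls.

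Ratios of the counts of 2 genes within a library do not depend on how libraries are scaled, and they were compared for all 45 pairs with an exact two-sided permutation test (12376 arrangements), with Benjamini-Hochberg adjustment over the 45 pairs. This comparison was chosen after the levels had been seen. In all, 10 pairs had an adjusted p under 0.05, and 17 a raw p under 0.05. Pairs that share a gene are not independent, and 7 of the 10 hold Slc22a6. Within lane 4, where the smallest possible p is 0.0119, 4 pairs had a raw p under 0.05 and 0 an adjusted one.

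The chains of type I collagen stood in a different ratio to each other. The ratio of Col1a1 to Col1a2 counts was 0.55, 0.88, 0.59, 0.57, 0.51 and 1.02 in transgene 1 to 6, and 0.34 to 0.54 in controls. All transgene libraries but transgene 5 lay above every control. The means were 0.69 ± 0.21 (SD, n = 6) and 0.45 ± 0.07 (n = 11), a log2 difference of 0.56 (exact permutation p = 0.000727, adjusted p = 0.0282). Leaving out single libraries moved the log2 difference between 0.44 and 0.64, with a p of at most 0.00343. Without the 3 libraries lowest in choroid plexus markers it was 0.31 (exact permutation p = 0.0320), and within lane 4 it was 0.53 (exact permutation p = 0.0833).

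The ratio of Col1a1 to Col3a1 was 3.38, 10.6, 8.15, 7.25, 3.38 and 7.73 in transgene 1 to 6, and 2.17 to 4.11 in controls. Transgene 2, 3, 4 and 6 lay above every control. The means were 6.74 ± 2.85 (n = 6) and 3.14 ± 0.58 (n = 11), a log2 difference of 0.99 (exact permutation p = 0.00162, adjusted p = 0.0282). Within lane 4 it was 1.01 (exact permutation p = 0.0714), and without the 3 libraries lowest in choroid plexus markers 0.76 (exact permutation p = 0.0110). The ratio of Col1a1 to Lum also differed (log2 difference 0.92, exact permutation p = 0.0102, adjusted p = 0.0495). Within lane 4 that difference was 0.50 (exact permutation p = 0.405). For Dcn to Lum, at 1.27 ± 0.73 (n = 6) and 1.30 ± 0.37 (n = 11), no difference was detected (exact permutation p = 0.635).

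The transporter genes also stood in a different ratio to each other. The ratio of Slc6a13 to Slc22a6 was 1.57, 1.15, 1.80, 1.72, 1.599 and 1.61 in transgene 1 to 6, and 1.59 to 2.39 in controls. Transgene 1 and 2 lay below every control, and transgene 5 and 6 near the lowest control. The means were 1.58 ± 0.23 (n = 6) and 1.98 ± 0.25 (n = 11), a log2 difference of -0.33 (exact permutation p = 0.00339, adjusted p = 0.0305). It was -0.33 within lane 4 (exact permutation p = 0.0595) and -0.21 without the 3 libraries lowest in choroid plexus markers (exact permutation p = 0.0430). Relative to Slc22a6, the counts of Dcn, Col3a1, Lum and Igf2 were lower in transgene libraries as well, with log2 differences of -1.11, -1.06, -0.98 and -0.86 (exact permutation, adjusted p = 0.0282, 0.0410, 0.0394 and 0.0282). Slc22a6 was higher relative to Ptgds by 0.55 and to Aldh1a2 by 0.49 on the log2 scale (exact permutation, adjusted p = 0.0436 and 0.0495). Within lane 4 the differences to Slc22a6 were -1.19 for Dcn, -1.17 for Col3a1, -0.65 for Lum and -0.71 for Igf2. Slc22a6 was higher there by 0.72 relative to Ptgds and 0.67 relative to Aldh1a2. The exact permutation p was 0.0952 for Dcn, Col3a1 and Lum, 0.0476 for Igf2 and 0.0357 for Ptgds and Aldh1a2, with an adjusted p of 0.390 for each.

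**Figure D3:**
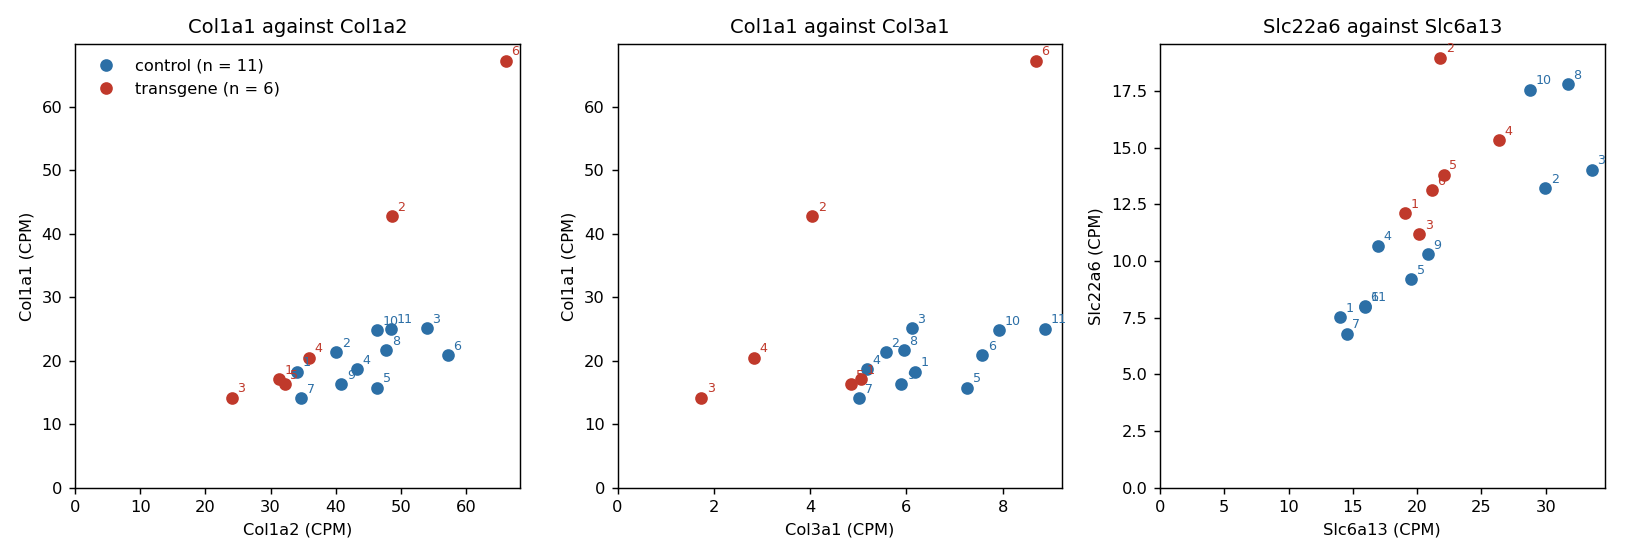
CPM of 2 genes against each other in every library, with the library number beside each point, controls in blue (n = 11) and transgene libraries in red (n = 6). Transgene 2 and 6 stand far above the control points in both Col1a1 panels, and the transgene points lie along the upper edge of the control points in the panel of Slc22a6 against Slc6a13.

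Among controls, the transporter and enzyme genes varied together. Slc6a13 and Slc22a6 had the closest relation of the 45 pairs, with a Pearson r of 0.93 and a Spearman rho of 0.91 over 11 libraries (permutation p = 0.000140 and 0.000190, adjusted over the 45 pairs 0.00630 and 0.00855). Without the 2 libraries farthest from the median of Slc6a13, r was 0.92, and within lane 8 it was 0.91 (n = 6). All 6 pairs among Slc6a13, Slc22a6, Ptgds and Aldh1a2 had r from 0.77 to 0.93 with an adjusted permutation p under 0.05. Without the 2 farthest libraries r was 0.51 to 0.92 for these pairs, and within lane 8 it was 0.65 to 0.91. By Spearman's rho, 2 of the 6 pairs had an adjusted permutation p under 0.05 (the other was Ptgds with Aldh1a2, rho 0.84, adjusted p = 0.0488). The libraries behind this were control 8, 3, 10 and 2 at the top, with summed levels of the 4 genes of 129, 114, 110.4 and 97.6 CPM, and control 1, 6 and 11 at the bottom, with 55.4, 56.8 and 61.1 CPM. Control 3 and control 1 were both on lane 8, and control 8 and control 11 both on lane 4. The part of the lane in this variation was not tested.

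The matrix genes Col1a1, Col1a2, Col3a1, Dcn and Lum were more loosely related in controls, with r from 0.21 to 0.62 over their 10 pairs, none with an adjusted permutation p under 0.05. Col1a1 and Col1a2 had r = 0.62 (permutation p = 0.0419, adjusted p = 0.210). Control 6, second lowest in the sum of the transporter and enzyme genes, was the highest control in the sum of the matrix genes at 102 CPM. One pair across the blocks, Dcn with Aldh1a2, had r = 0.76 (permutation, adjusted p = 0.0456), but r was 0.35 without the 2 libraries farthest from the median of Dcn, so over the 11 controls this relation rests on those libraries. Within the 6 controls of lane 8 it was 0.91.

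In the 6 transgene libraries no pair of the 45 had an adjusted p under 0.05. Col1a1 and Col1a2 had r = 0.98 and rho = 0.94 (exact permutation p = 0.00278 and 0.0167, adjusted p = 0.125 and 0.375), with r = 0.93 without the 2 farthest libraries. Col1a2 and Aldh1a2 had r = 0.93 (exact permutation p = 0.00556, adjusted p = 0.125), with transgene 6 highest and transgene 3 lowest in both genes. Over the 10 pairs of matrix genes r ran from -0.60 to 0.98, with Dcn at -0.54 to Col1a1, -0.60 to Col1a2, -0.23 to Col3a1 and 0.11 to Lum. The pairs among the transporter and enzyme genes had r from 0.12 to 0.63. Of these genes, Slc6a13 varied by 1.39-fold between the 6 transgene libraries and by 2.40-fold between the 11 controls. Slc22a6 varied by 1.69-fold and 2.62-fold, and Ptgds by 1.74-fold and 3.01-fold. Aldh1a2 was not narrower with the transgene, with an SD of 4.69 CPM (n = 6) against 4.53 CPM (n = 11). Col1a1 varied by 4.73-fold and 1.78-fold. A range tends to grow with the number of libraries, so ranges over 6 and 11 libraries cannot be compared directly. The difference between the groups in these relations was not tested.

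**Figure D4:**
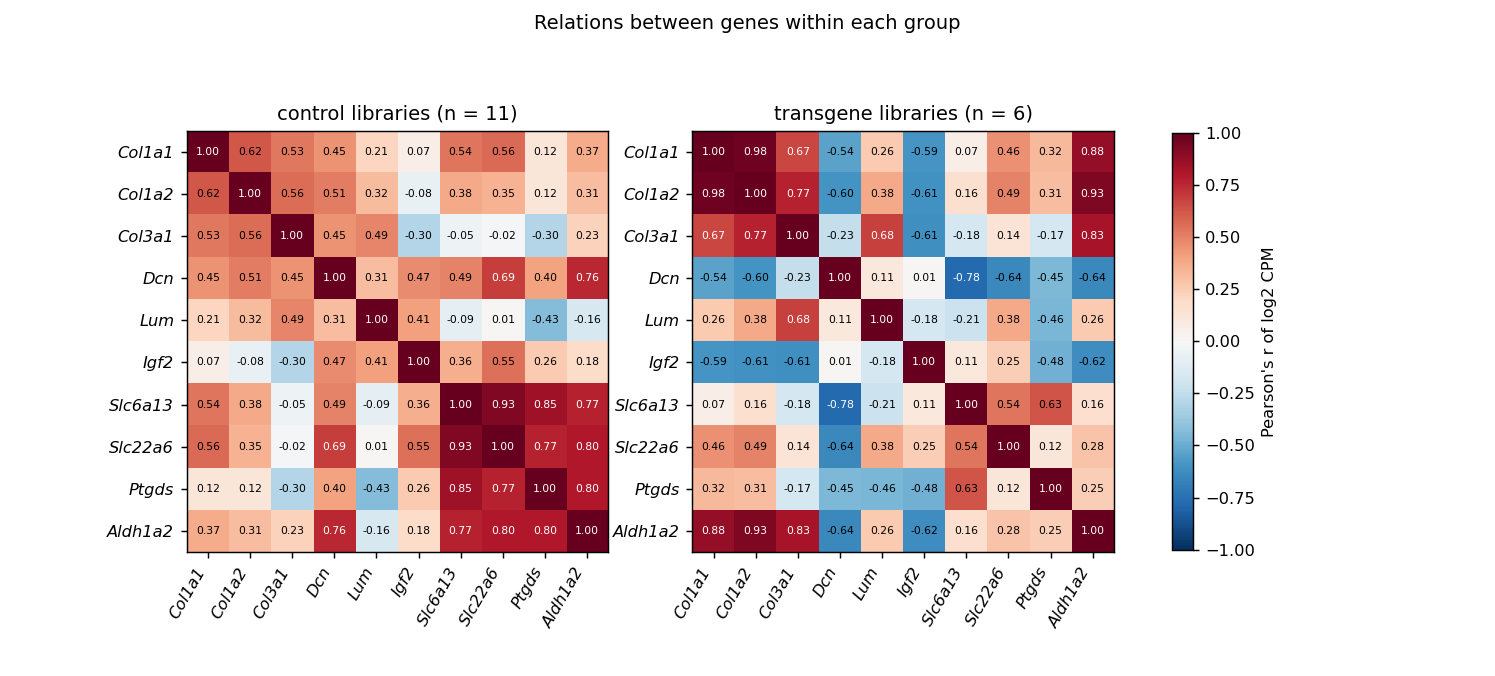
Pearson's r of log2 CPM for each pair of genes, on the left over 11 control libraries and on the right over 6 transgene libraries, with red for positive and blue for negative values. The lower right block of the control panel, Slc6a13 to Aldh1a2, holds r from 0.77 to 0.93.

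**Figure D5:**
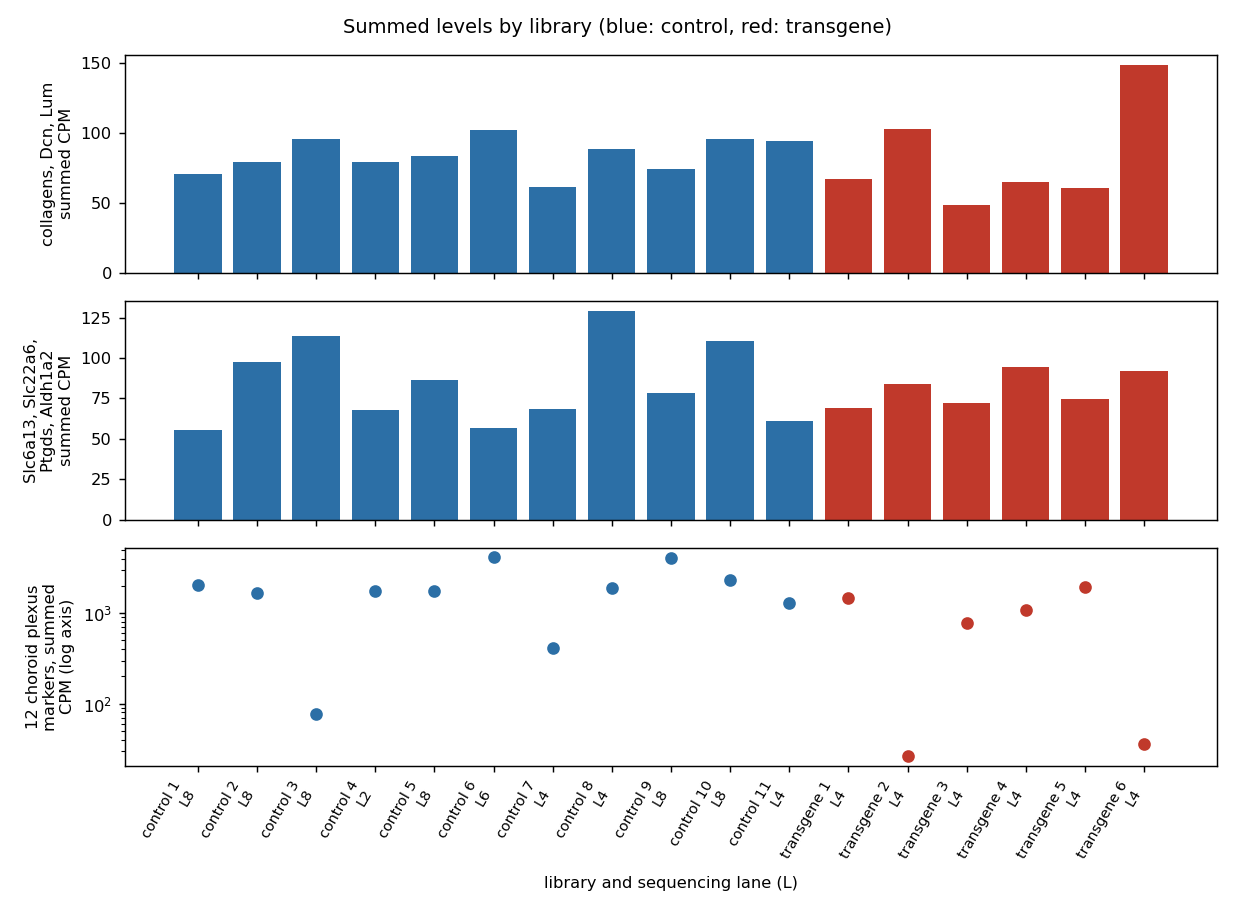
Summed CPM in each library of the matrix genes (upper bars), of the transporter and enzyme genes (middle bars) and of the 12 choroid plexus markers (lower points, log axis), with the sequencing lane below each library name (lane 6 is on the other flow cell). Transgene 6 has the highest matrix sum at 149 CPM and, with transgene 2 and control 3, one of the 3 lowest choroid plexus sums.

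The sum of all 10 genes hardly separated the groups, at 171 ± 43.2 CPM with the transgene (SD, n = 6) and 180 ± 32.4 CPM in controls (n = 11). The sum of the matrix genes was 82.2 ± 37.4 against 84.2 ± 12.3 CPM and that of the transporter and enzyme genes 81.1 ± 10.8 against 84.1 ± 25.3 CPM. The matrix sum was lowest in transgene 3 at 48.4 CPM and highest in transgene 6 at 149 CPM, both outside the control range of 61.9 to 102 CPM. In transgene 6 most of it was Col1a1 (67.2 CPM) and Col1a2 (66.1 CPM), while Dcn (3.07 CPM) lay below every control.

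Over all libraries, other genes of the same pathways changed in both directions, except the prostaglandin genes, whose calls were all higher. The rates are set here against the 47.4% of all tested features called over all libraries and the 25.6% within lane 4. Of 21 tested genes of other collagens and matrix proteins, 4 rose and 5 fell, with a median log2 fold change of 0.01. Col6a1 and Col6a2, chains of the beaded-filament type VI collagen, rose by 2.27 ± 0.36 and 1.29 ± 0.24 on the log2 scale (edgeR adjusted p = 5.26e-05 and 0.000236). Sparc, which binds collagen and calcium, fell by 1.47 ± 0.17 and Serping1, an inhibitor of complement C1, by 1.22 ± 0.15 (edgeR adjusted p = 1.36e-06 and 4.95e-06). These 4 calls also held within lane 4, where 3 genes of the list were called higher and 4 lower. Of 16 collagen processing genes, 1 rose and 5 fell (0 and 4 within lane 4), with a median of -0.18. Adamts2, which trims procollagen, fell by 0.84 ± 0.16, the lysyl hydroxylase gene Plod1 by 0.63 ± 0.16, the crosslinking enzyme gene Loxl2 by 1.32 ± 0.21, and Bmp1, another procollagen protease, by 1.02 ± 0.26 on the log2 scale (edgeR adjusted p from 5.53e-05 to 0.00373). Within lane 4 the log2 fold change of Bmp1 was -0.54 (edgeR adjusted p = 0.353).

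Of 12 other barrier transporters, 1 rose and 3 fell (0 and 2 within lane 4), with a median of -0.16. Slc38a2, an amino acid transporter, fell by 0.71 ± 0.07 and Slc16a11 by 1.08 ± 0.28, and Slc7a11, the cystine and glutamate exchanger, rose by 0.51 ± 0.15 on the log2 scale (edgeR adjusted p = 5.20e-07, 0.00363 and 0.00865). Slc16a11 and Slc7a11 were not called within lane 4. The third to fall was Slc6a12, the betaine and GABA transporter gene 5343 bases from Slc6a13, which is named here after its value was seen because its mean level was low: it was at 0.43 ± 0.25 CPM in transgene libraries and fell by 1.47 ± 0.27 (edgeR adjusted p = 0.000197). Slc22a8, the neighbour of Slc22a6 at 6204 bases, had a log2 fold change of -0.22 (edgeR adjusted p = 0.214).

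Of 16 tested transcription factors and signals of the meninges, 1 rose and 3 fell (0 and 1 within lane 4), with a median of -0.0033. Zic1, a factor of meninges that is also strongly expressed in cerebellar neurons, fell by 2.84 ± 0.40, Bmp5 by 1.59 ± 0.30 and Wnt6 by 0.55 ± 0.18 on the log2 scale, and Bmp7 rose by 0.37 ± 0.11 (edgeR adjusted p = 1.25e-05, 0.000276, 0.0198 and 0.0118). Zic1 alone was called within lane 4. Foxc1, a factor that meningeal development needs, was at 18.9 ± 1.8 CPM in transgene libraries, with a log2 fold change of 0.14 (edgeR adjusted p = 0.343), and Tbx18 had one of 0.36 (edgeR adjusted p = 0.170). Both are named after their values were seen.

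Of 13 retinoid genes, 2 rose and 4 fell (2 and 2 within lane 4), with a median of 0.04. Aldh1a1, a relative of Aldh1a2 known from dopamine neurons, fell by 2.13 ± 0.19, and Cyp26b1, which breaks down retinoic acid, by 1.83 ± 0.16 (both with an edgeR adjusted p of 1.50e-07). The receptor gene Rarb rose by 1.41 ± 0.18 and the retinol carrier gene Rbp4 by 0.88 ± 0.20 on the log2 scale (edgeR adjusted p = 4.67e-06 and 0.00150). Of 12 insulin-like growth factor genes, 4 rose and 3 fell (2 and 2 within lane 4), with a median of -0.19. H19, the noncoding gene imprinted together with Igf2, fell by 2.12 ± 0.43 from a low level, while the binding protein genes Igfbp4, Igfbp6 and Igfbp7 rose by 1.99 ± 0.21, 1.27 ± 0.19 and 1.21 ± 0.28 (edgeR adjusted p = 0.000499, 6.91e-07, 2.95e-05 and 0.00168). Igfbp7 was not called within lane 4. Of 11 prostaglandin genes, 6 rose and 0 fell (2 and 0 of 12 within lane 4), with a median of 0.31. Of all tested features, 23.0% were called higher over all libraries and 13.6% within lane 4. The inducible cyclooxygenase gene Ptgs2 rose by 1.73 ± 0.31, the prostacyclin synthase gene Ptgis by 1.14 ± 0.18, the prostaglandin D2 receptor gene Ptgdr by 0.79 ± 0.28 and the other prostaglandin D2 synthase gene, Hpgds, by 0.70 ± 0.19 on the log2 scale (edgeR adjusted p = 0.000149, 3.68e-05, 0.0245 and 0.00626). Ptgs2 and Ptgis were also called within lane 4, and Ptgdr and Hpgds were not.

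The genes whose levels followed the matrix genes most closely were searched among 15534 features over all 17 libraries, after the group means were taken out and against the mean pattern of Col1a1, Col1a2, Col3a1, Dcn and Lum. The 10 closest were Angpt2 (r = 0.75), Zfp560 (0.75), Emilin1 (0.73), Ctnnb1 (0.73), Rybp (0.72), Jhy (0.72), Vil1 (0.72), Stk38l (0.70), Gm48843 (0.70) and Wls (0.69). These are descriptions over 17 points that share depth and library preparation. Within controls r ran from 0.34 (Jhy) to 0.75 (Wls), and within transgene libraries from 0.66 (Wls) to 0.98 (Stk38l). For Jhy it was 0.97 within transgene libraries, and for Stk38l 0.43 within controls. Of the 10, Ctnnb1 and Rybp rose and Jhy fell between the groups (edgeR adjusted p = 0.0130, 0.000137 and 0.0209), and the other 7 did not pass the test.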

How the data were processed

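Brain RNA was measured in 17 libraries. The authors deposited raw counts per transcript (68517 rows each), and their reads were placed on mm10, per the submitters' processing notes. No source used here names the aligner, counter, annotation or strand setting. Of these rows, 64505 carried Ensembl transcript names, of which 64380 matched GENCODE M21 by name and 125 did not, and 4007 carried names of assembled loci. The 5 closing rows, which name no feature, stayed out of library sizes and tests. Ambiguous reads were 41.1% ± 0.82 (SD, n = 11) of the total in controls and 42.1% ± 0.84 (n = 6) with the transgene, and reads off all features 8.98% ± 1.41 and 7.44% ± 1.43. A gene with overlapping transcripts therefore lost reads.

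Counts were summed per gene and tested in R 4.3.3 with edgeR 4.0.16 (glmQLFTest after TMM scaling and filterByExpr), with Benjamini-Hochberg adjustment over all tested features and a threshold of 0.05. All adjusted p-values of fold changes come from that tool unless another is named. SEs were derived from the F statistic. The fits were checked on simulated counts. DESeq2 1.42.0 and limma-voom (limma 3.58.1), other scalings and filters, the highest transcript row alone, lane and flow cell as a factor, and leaving out each library served as alternatives. Log2 CPM used a prior count of 2. Ratios and correlations were tested by permutation (scipy 1.17.1), exact except for correlations over the 11 controls. Library pairs of a group differed beyond counting noise (chi-square per feature at least 9.97 over 55 control and 13.7 over 15 transgene pairs). The highest values were those of control 7, from 45.8 (with control 11) to 128 (with control 3), and it is on lane 4.

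The genes, lists and markers were chosen with earlier results of these data known. The text names all 10 genes, up to 4 called genes of each other list with the largest log2 fold change and a mean log2 CPM of at least 0, the markers' sums with up to 2 leading genes, genes that overlap the 10, and the 10 genes most like the matrix genes. The ratio tests and the search for genes like the transporters were added after the data were seen. HAR1A itself was not analysed here and could not serve to check the labels.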

Additional observations from a re-analysis of the deposited data

Results flagged for a closer look

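The ratio of Slc6a13 to Slc22a6 counts in transgene 2 (1.15) stood apart from those of the other 5 transgene libraries (1.57 to 1.80): its gap to the nearest was 0.694 of the whole range on the log2 scale, above Dixon's 95% critical value for 6 samples. Lum in control 3 (3.96 CPM) stood apart from the other 5 controls of lane 8 (5.71 to 6.84 CPM) in the same way, with a gap of 0.669 of the log2 range. Chance alone flags about 1 in 20 groups, and 2 of 26 tested groups were flagged. Both libraries are among the 3 lowest in choroid plexus markers, and the part of that tissue was not tested.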

How the results depend on the processing

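No paired analysis was possible because the labels number no replicates. Over all libraries, the count of 2 called genes became 4 with scaling by library size only (Col3a1, Dcn, Lum and Igf2), 3 with limma-voom (Col3a1, Dcn and Lum), 1 with the highest transcript row alone (Lum), 0 with a factor for lane and flow cell, and 4 without control 7 and transgene 3, a pair left out after seeing the data (Col1a1, Dcn, Lum and Igf2). Of all tested features, the same fits called 9871 of 19136, 8867 of 19136, 8882 of 18908, 5887 of 19136 and 9113 of 19327, in that order. Leaving out single libraries gave 0 to 3, with 0 without transgene 4, 1 without transgene 2 and 1 without transgene 6. Those fits called from 8177 features of 19453 (without transgene 2) to 9550 of 19007 (without control 7). Within lane 4 the count of 0 became 1 without transgene 1 (Dcn, log2 fold change -0.91) and 2 without control 8 (Slc6a13 at 0.50 and Slc22a6 at 0.92), a range of 0 to 2. Without transgene 1 and without control 8, 4551 of 19160 and 4863 of 20263 tested features were called. Between the lanes of the controls the count of called genes among the 10 was 0 under every alternative run. Library size scaling moved the median of all features from -0.05 to -0.16 and the calls from 4410 higher and 4668 lower to 3510 and 6361, and the 10 genes moved with it.

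Slc6a13, near 0 over all libraries, turned positive with RLE size factors (0.0080), DESeq2 (0.0079), limma-voom (0.060), no filter (0.022), a filter of 1 CPM (0.011), the highest row (0.015), the lane factor (0.072) and without the 3 libraries lowest in choroid plexus markers (0.092), and negative within lane 4 with library size only (-0.013). Col1a1 turned negative without those libraries, at -0.19 over all and -0.27 within lane 4. Leaving out single libraries moved Slc6a13 from -0.065 to 0.064 and Aldh1a2 from -0.22 to 0.00022 over all libraries. Within lane 4 it moved Slc6a13 from -0.14 to 0.50, Igf2 from -0.54 to 0.25, Ptgds from -0.64 to 0.12 and Aldh1a2 from -0.34 to 0.027. Dcn and Lum stayed below 0 in every setting run for both comparisons of transgene with control.

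Between the lanes of the controls, values near 0 changed sign: Col1a1 with RLE (-0.0035), DESeq2 (-0.0034), no filter (-0.0046) and 1 CPM (-0.0011), Col1a2 with RLE (-0.0041), DESeq2 (-0.0040) and no filter (-0.0056), Col3a1 with library size (0.0042) and limma-voom (0.025), Ptgds with the same (0.020 and 0.062), Aldh1a2 with library size (0.027) and Dcn with the highest row (-0.058). Single libraries moved Col1a1 from -0.22 to 0.19, Col1a2 from -0.15 to 0.095, Col3a1 from -0.20 to 0.26, Dcn from -0.17 to 0.25, Igf2 from -0.030 to 0.76, Slc22a6 from -0.11 to 0.70, Ptgds from -0.30 to 0.46 and Aldh1a2 from -0.12 to 0.21. The cause of these changes was not tested. Depth limits Col3a1, Dcn and Lum most, with 33 to 228 counts per library.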

Other observations

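A search for the genes most like the mean pattern of Slc6a13, Slc22a6, Ptgds and Aldh1a2, added after the data were seen, gave closer values than the matrix genes had. Over 17 libraries with the group means taken out, Crabp2, which binds retinoic acid in the cell, had r = 0.94 and Fmod, the fibromodulin gene, r = 0.88. The next 8 of 15534 features were Kantr and Hcar1 (0.87 each), Klf5 (0.87), Ranbp3l (0.85), Lrp8os2 (0.84), Gm45441 (0.84), Mrc1 (0.84), a receptor gene of border macrophages, and Dpp4 (0.83). Crabp2 was at 5.98 ± 0.96 CPM with the transgene (SD, n = 6) and 5.76 ± 1.65 CPM in controls (n = 11; edgeR adjusted p = 0.821), and Fmod at 33.0 ± 8.1 and 33.9 ± 13.6 CPM (edgeR adjusted p = 0.908). Others of the 10 did differ between the groups, among them Klf5, which rose by 1.74 ± 0.30 on the log2 scale (edgeR adjusted p = 9.65e-05), with an r of 0.91 to the 4 genes within controls and 0.31 within transgene libraries. The r within transgene libraries was also low for Fmod (0.40) and Gm45441 (0.19), against 0.96 and 0.88 within controls. These correlations are descriptions over libraries that share depth and preparation.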
